A study of Mus musculus with 6 samples.

Results

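The genes described here are 10 targets of the hypoxia-inducible factors (HIF) that have no part in glycolysis: Car9, Car12, Adm, Vegfa, Bnip3, Bnip3l, Ndrg1, P4ha1, P4ha2 and Ankrd37. They were chosen by name, and all 10 were found among the 24346 gene symbols quantified in each library. Messenger RNA was sequenced in 6 libraries of the line 4T1, a mouse mammary carcinoma that metastasises when grafted. In the cells labelled shRNA1 and shRNA3 the long noncoding RNA AU021063 was targeted by a hairpin, a different one in each, and the cells labelled WT had been mock transfected, with 2 libraries in each of the 3 groups. A non-targeting hairpin is not among the groups, and the labels give no oxygen level and no cell density, and do not say whether a knockdown culture was a clone or a pool. Nothing in the labels tells whether the libraries of a group are separate cultures, so p-values here reflect the spread between libraries, which may be only technical.

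When oxygen is short, the prolyl hydroxylases that mark HIF alpha subunits for destruction through the von Hippel-Lindau protein slow down, and HIF accumulates and binds hypoxia response elements near its targets. Besides glycolytic enzymes, these targets regulate pH (carbonic anhydrases), blood and lymph vessel growth (VEGF-A, adrenomedullin), collagen maturation (prolyl 4-hydroxylases) and the removal of mitochondria (BNIP3 and BNIP3L). In carcinomas, CA9 and NDRG1 are widely used as markers of hypoxic regions. Several of these genes also answer to other inputs, such as growth factor signals or the stress factor ATF4 for Vegfa.

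The sequences just upstream of the RefSeq start of 4 of these genes are shown because the genes rose together and because they differed in which hairpin gave the higher level: Bnip3 and Ankrd37 were higher with shRNA1, P4ha1 was higher with shRNA3, and Adm did not pass the test between the hairpins. Each line gives the 250 bases before the RefSeq transcription start (build GRCm38.p6), read 5′ to 3′ on the strand of the gene. Capitals mark the core of the HIF binding site, ACGTG or GCGTG, on the strand shown, or its reverse complement (CACGT or CACGC), with overlapping matches counted separately.
Bnip3: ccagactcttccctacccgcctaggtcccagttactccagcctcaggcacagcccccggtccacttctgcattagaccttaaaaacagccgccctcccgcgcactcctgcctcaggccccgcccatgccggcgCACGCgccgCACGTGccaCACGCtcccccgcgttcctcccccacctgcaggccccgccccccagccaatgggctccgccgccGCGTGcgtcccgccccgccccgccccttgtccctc
Ankrd37: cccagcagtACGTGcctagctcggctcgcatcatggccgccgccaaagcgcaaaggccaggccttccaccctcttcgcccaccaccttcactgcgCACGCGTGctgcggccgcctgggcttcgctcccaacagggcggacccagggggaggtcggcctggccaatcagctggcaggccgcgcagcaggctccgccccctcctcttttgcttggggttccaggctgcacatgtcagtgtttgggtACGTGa
P4ha1: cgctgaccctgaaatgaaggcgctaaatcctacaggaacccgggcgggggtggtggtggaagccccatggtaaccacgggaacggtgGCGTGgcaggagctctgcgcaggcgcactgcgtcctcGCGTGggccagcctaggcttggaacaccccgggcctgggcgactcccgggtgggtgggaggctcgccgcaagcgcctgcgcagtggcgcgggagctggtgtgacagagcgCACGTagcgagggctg
Adm: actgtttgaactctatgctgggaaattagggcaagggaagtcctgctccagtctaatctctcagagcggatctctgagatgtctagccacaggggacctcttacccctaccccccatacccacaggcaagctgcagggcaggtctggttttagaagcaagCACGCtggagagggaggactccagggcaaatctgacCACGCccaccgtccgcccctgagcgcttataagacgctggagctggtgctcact
These windows are chr7:138909507-138909756 on the minus strand for Bnip3, chr8:45999851-46000100 on the minus strand for Ankrd37, chr10:59323046-59323295 on the plus strand for P4ha1 and chr7:110627407-110627656 on the plus strand for Adm. The Ankrd37 window lies inside the longer span that GENCODE gives the gene, so it is upstream of the RefSeq transcript and not of every annotated one, and the same holds for the P4ha2 window, which is not shown. The Bnip3 window held 5 matches, 2 of them from both strands of one CACGTG palindrome that starts 108 bases before the transcription start. The Ankrd37 window held 4 matches, the nearest 6 bases before the start, and 2 of the 4 overlap. The P4ha1 window held 3 and the Adm window 2. Of the 10 genes 8 had an upstream sequence in the RefSeq table, all but Bnip3l and Ndrg1, and 7 of these 8 held at least 1 match. For Vegfa the matches lay in the window of an alternative start inside the gene, and neither its other window nor that of Car12 held one. Car9 held 1 match, 18 bases before its RefSeq start. That match lies inside the span that GENCODE gives the gene, which starts farther upstream. Of all 27025 genes with such a sequence 41.5% held a match, and of the 8515 tested below 63.5%. A match describes the letters and is not evidence of binding.

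The knockdown cells held more mRNA of all 10 genes than WT cells, with either hairpin. The level was taken as FPKM, the number of fragments scaled by transcript length and by the total mapped in a library, and changes were tested on the log2(FPKM + 1) scale with limma across the 11079 genes that averaged 1 FPKM or more, with Benjamini-Hochberg adjustment over all of them and a threshold of 0.05. All 10 genes passed that filter. Over both hairpins against WT all 10 were called higher, where 24.1% of all genes tested were called higher and 25.9% lower. With shRNA1 alone 10 of 10 were called higher, against a background of 17.6%, and with shRNA3 alone 10 of 10, against 27.4%. The 4 knockdown libraries lay above both WT libraries for each of the 10 genes, as they did for 22.2% of all genes tested. The median log2 change of the 10 was 1.18 over both hairpins, 1.25 with shRNA1 and 1.07 with shRNA3, beside -0.01 for all genes tested in each of the 3 comparisons. Ranked from the highest log2 change over both hairpins among the 11079 genes, Car9 stood at place 20, Adm at 34, Car12 at 42, and the lowest, Bnip3l, at 710. Both hairpin comparisons use the same WT libraries and so are not independent of each other. The standard errors (SE) given below over both hairpins reflect the spread within the 3 groups. They leave out the difference between the hairpins, and ran from 0.03 for Ndrg1 to 0.07 for Adm. With the 4 knockdown libraries fitted as 1 group, the SE ran from 0.06 for Vegfa to 0.26 for Ankrd37, and all 10 genes stayed called higher. The labels give no oxygen level, so a difference in oxygen between cultures cannot be told apart from the hairpins.

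**Figure D1:**
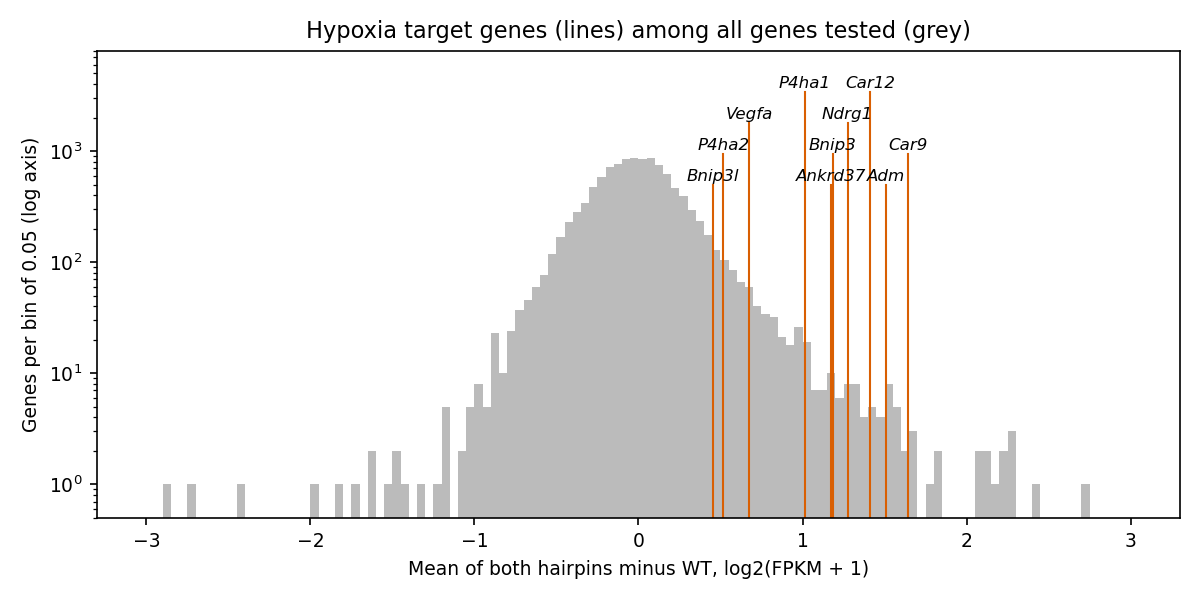
Number of genes (log axis) by their difference in log2(FPKM + 1), mean of both hairpins minus WT, for the 11079 genes tested, in bins of 0.05, with a labelled line for each hypoxia target gene. All 10 lines lie right of 0, from 0.46 for Bnip3l to 1.64 for Car9.

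Facts of the whole set bear on these values as follows. The values of a library summed to between 560862 and 604022 FPKM, and their depth, read from the ratios of low values, was 86.8% to 105% that of WT replicate 1, while the absolute depth is unknown. AU021063 was at 1.04 and 0.572 FPKM with shRNA1, 0.785 and 0 FPKM with shRNA3, and 1.82 and 1.67 FPKM in WT. Exons of A330009N23Rik, a gene on the other strand, cover 100% of the exon bases of AU021063. A330009N23Rik averaged 0.69 FPKM with shRNA1, 0.367 with shRNA3 and 0.69 in WT. The epithelial markers Krt8, Krt18, Krt7, Epcam and Cdh1 summed to between 1021 and 1090 FPKM with shRNA1, 734 and 737 with shRNA3, and 929 and 962 in WT. Most of each sum came from Krt8 and Krt18. With shRNA3 the means of Krt8, Krt18 and Krt7 were 0.62, 0.91 and 0.86 times those of WT. Those of Epcam and Cdh1 were 1.55 and 1.29 times. With shRNA1 the means, in the order named, were 1.09, 1.13, 1.44, 2.11 and 1.22 times those of WT. Of 10 markers of other cells, 4 were at 0 in every library (Ptprc, Cd3e, Col3a1 and Hba-a1) and 7 stayed under 1 FPKM throughout. The 10 summed to between 59.4 and 62.0 FPKM with shRNA1, 67.9 and 69.5 with shRNA3, and 57.2 and 57.3 in WT, mostly from Pdgfra, lower in all 4 knockdown libraries than in both WT libraries, and Cd68, higher in all 4. Pdgfra, a receptor used as a marker of fibroblasts, averaged 41.8 FPKM with shRNA1, 38.8 with shRNA3 and 49.9 in WT, while the mean of the collagen gene Col1a1 was 2.05 times that of WT with shRNA1 and 2.71 times with shRNA3, at 0.732 FPKM in WT. Cd68, a lysosomal protein gene used as a macrophage marker, averaged 17.3 FPKM with shRNA1, 27.8 with shRNA3 and 6.59 in WT, while Adgre1 and Ptprc, the defining markers of macrophages and leukocytes, were at or near 0. The part of these markers in the results on the hypoxia genes was not tested. Between both libraries of a group, the 10 hypoxia genes differed by a median of 3.64% with shRNA1, 2.81% with shRNA3 and 5.13% in WT, which is near the 4.32% to 4.47% found for all genes that averaged 10 FPKM or more.

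Together the 10 genes took up 0.208% and 0.214% of the summed FPKM of the shRNA1 libraries, 0.208% and 0.216% of the shRNA3 libraries, and 0.108% and 0.105% of the WT libraries. Their summed level was 1233 and 1248 FPKM with shRNA1, 1256 and 1263 with shRNA3, and 608 and 595 in WT. The sums of the hairpins thus lay close together, although single genes differed between them. Ndrg1 had the highest FPKM of the 10 in every group. Next came Bnip3 in both knockdown groups, while in WT Bnip3l and Bnip3 shared the places after Ndrg1, with overlapping libraries. With shRNA3, P4ha1 came next, ahead of Bnip3l and Vegfa, while with shRNA1 and in WT it stood behind them. With shRNA1 the libraries of Bnip3l and Vegfa overlapped. P4ha2 stood at place 6 and Car12 at place 7 in every group, and the lowest 3 were always Car9, Adm and Ankrd37. Among these 3, Ankrd37 was highest with shRNA1 and lowest with shRNA3, and Adm overlapped with Ankrd37 in shRNA1 and WT libraries.

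**Figure D2:**
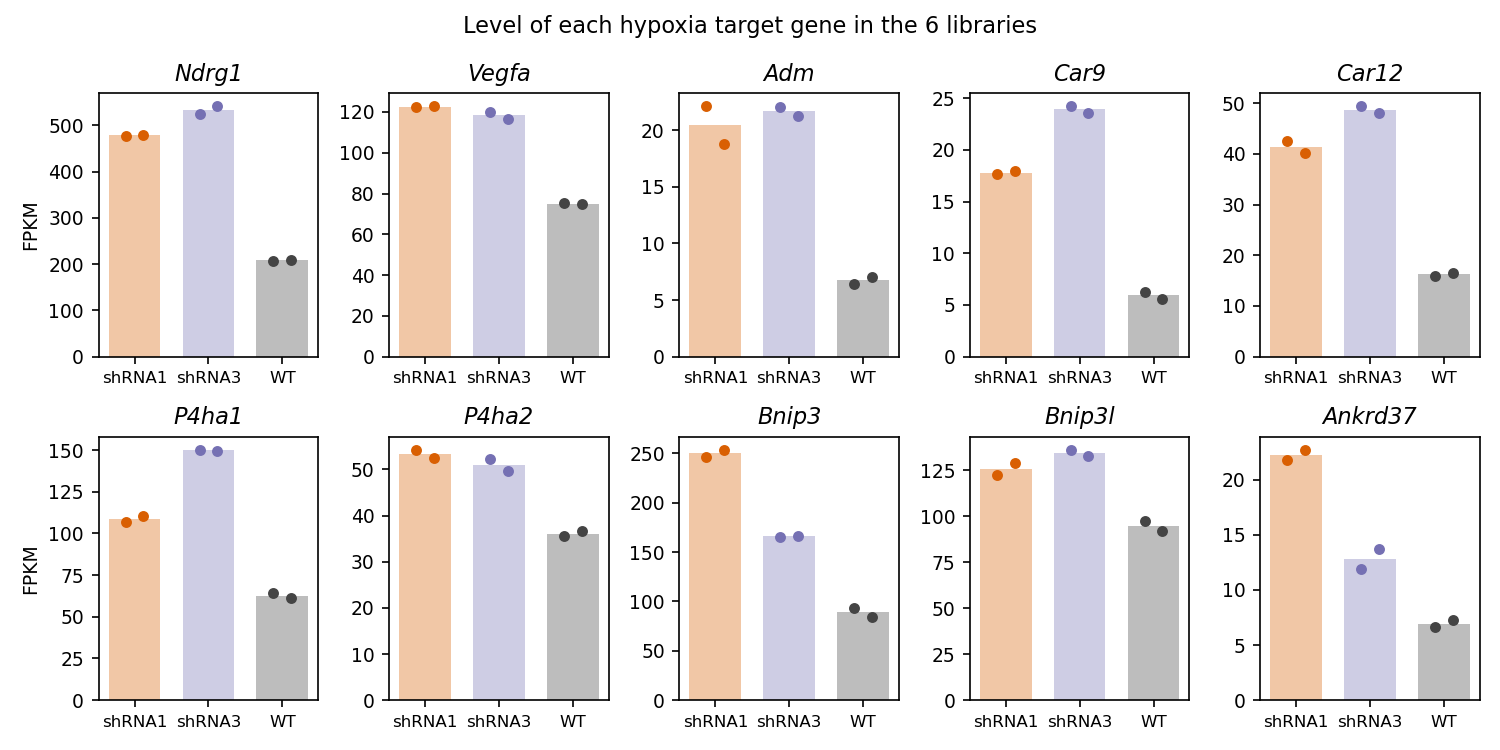
FPKM of each gene in every library (points) with the mean of each group (bars, n = 2), for shRNA1, shRNA3 and WT cells. For each of the 10 genes all 4 knockdown points lie above both WT points, and Bnip3 and Ankrd37 stand higher with shRNA1 while Car9 and P4ha1 stand higher with shRNA3.

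Of the 2 secreted factors, Adm rose more than Vegfa. Adm (ENSMUSG00000030790.15, chromosome 7, 110627661 to 110629820, plus strand, GENCODE mouse release 21 on GRCm38) encodes adrenomedullin, a peptide that widens blood vessels and is needed for lymphatic vessels. Its values were 22.1 and 18.8 FPKM in the shRNA1 libraries, 22.0 and 21.3 FPKM in the shRNA3 libraries, and 6.43 and 7.03 FPKM in the WT libraries. The lowest knockdown library was well above the higher WT library, and the libraries of the hairpins overlapped. The ratio of means was 3.04 with shRNA1 and 3.22 with shRNA3, and over both hairpins the log2 change was 1.51 ± 0.07 (SE, limma adjusted p = 3.55e-06). Vegfa (ENSMUSG00000023951.17, chromosome 17, 46016993 to 46032369, minus strand) encodes vascular endothelial growth factor A, the main ligand that draws new blood vessels. Its level was 122 and 123 FPKM with shRNA1, 119.97 and 117 FPKM with shRNA3, and 75.2 and 74.7 FPKM in WT. The spread within groups was small beside the gap to WT. Vegfa rose 1.64-fold with shRNA1 and 1.58-fold with shRNA3, with a log2 change over both hairpins of 0.68 ± 0.03 (SE, limma adjusted p = 5.04e-06). Neither of these ligands passed the test between the hairpins: shRNA3 minus shRNA1 was 0.08 for Adm (95% interval -0.11 to 0.27, limma adjusted p = 0.452) and -0.05 for Vegfa (-0.14 to 0.04, limma adjusted p = 0.323).

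Both carbonic anhydrases among the 10, which act at the cell surface, rose. They hydrate carbon dioxide outside the cell and help tumour cells that produce acid to keep their own pH. Car9 (ENSMUSG00000028463.14, chromosome 4, 43506966 to 43513729, plus strand) encodes carbonic anhydrase 9. Its libraries read 17.7 and 17.9 FPKM with shRNA1, 24.2 and 23.6 FPKM with shRNA3, and 6.29 and 5.59 FPKM in WT. The 3 groups did not overlap, and shRNA3 was highest. The hairpins also lay apart for most genes tested, 4147 higher and 3965 lower with shRNA3 of 11079. Car9 had the largest change of the 10 over both hairpins, 1.64 ± 0.06 on the log2 scale (SE, limma adjusted p = 8.28e-07). Car12 (ENSMUSG00000032373.15, chromosome 9, 66713686 to 66766845, plus strand) encodes carbonic anhydrase 12. Its libraries were at 42.5 and 40.1 FPKM with shRNA1, 49.4 and 48.1 FPKM with shRNA3, and 16.0 and 16.4 FPKM in WT, in the same order of groups as Car9. The ratio of means was 2.55 with shRNA1 and 3.01 with shRNA3, and over both hairpins the log2 change was 1.41 ± 0.04 (SE, limma adjusted p = 6.36e-07). Both genes were higher with shRNA3 than with shRNA1, Car9 by 0.41 ± 0.06 (limma adjusted p = 0.00199) and Car12 by 0.23 ± 0.05 (limma adjusted p = 0.00741) on the log2 scale. The Car12 difference ended without shRNA1 replicate 2 (0.19, limma adjusted p = 0.0513; range over all settings 0.00576 to 0.0513).

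The collagen prolyl 4-hydroxylase subunits rose unequally. These enzymes hydroxylate prolines of procollagen in the endoplasmic reticulum, which the collagen triple helix needs to be stable. P4ha1 (ENSMUSG00000019916.14, chromosome 10, 59323296 to 59373304, plus strand) encodes the alpha 1 subunit. It read 107 and 111 FPKM with shRNA1, 150.4 and 149 FPKM with shRNA3, and 64.0 and 61.4 FPKM in WT. The groups were separate, with shRNA3 highest and WT lowest. P4ha1 rose 1.73-fold in shRNA1 cells and 2.39-fold in shRNA3 cells, and shRNA3 exceeded shRNA1 by 0.46 ± 0.04 on the log2 scale (SE, limma adjusted p = 1.82e-04). P4ha2 (ENSMUSG00000018906.14, chromosome 11, 54100095 to 54131665, plus strand) encodes the alpha 2 subunit. It stood at 54.3 and 52.4 FPKM with shRNA1, 52.2 and 49.7 FPKM with shRNA3, and 35.5 and 36.7 FPKM in WT. Both hairpins stood above WT by a similar amount, 1.48-fold in shRNA1 cells and 1.41-fold in shRNA3 cells, and the difference between them did not pass (-0.07, 95% interval -0.18 to 0.04, limma adjusted p = 0.297). Over both hairpins the log2 change was 1.01 ± 0.04 for P4ha1 (SE, limma adjusted p = 1.33e-06) and 0.52 ± 0.04 for P4ha2 (SE, limma adjusted p = 5.26e-05).

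The mitophagy receptors Bnip3 and Bnip3l both rose, with Bnip3 rising more. Both are proteins of the outer mitochondrial membrane, related to the BCL-2 family, that bind LC3 and lead mitochondria to autophagy; BNIP3L, also called NIX, clears mitochondria from maturing red cells. Bnip3 (ENSMUSG00000078566.8, chromosome 7, 138890836 to 138909519, minus strand) was at 246 and 254 FPKM with shRNA1, 165 and 167 FPKM with shRNA3, and 93.7 and 84.6 FPKM in WT. The shRNA1 libraries were highest and no groups overlapped. The ratio of means to WT was 2.80 with shRNA1 and 1.86 with shRNA3. Bnip3 was lower with shRNA3 than with shRNA1 by a log2 difference of -0.59 ± 0.05 (SE, limma adjusted p = 1.62e-04). Bnip3l (ENSMUSG00000022051.15, chromosome 14, 66985239 to 67008877, minus strand) was at 123 and 129 FPKM with shRNA1, 136 and 133 FPKM with shRNA3, and 97.5 and 91.7 FPKM in WT. It had the smallest change of the 10, 1.33-fold with shRNA1 and 1.42-fold with shRNA3, with a log2 change over both hairpins of 0.46 ± 0.04 (SE, limma adjusted p = 9.79e-05). Between the hairpins Bnip3l did not pass (0.09, 95% interval -0.02 to 0.21, limma adjusted p = 0.146). The annotation holds a transcribed processed pseudogene of Bnip3l on chromosome 12, which is not among the symbols, so that reads of the copy may have been split or added. An antisense gene, Gm45507, covers 22.3% of the exon bases of Bnip3 and the strand setting of the authors' quantification is not stated in the sources used here.

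Ndrg1 was the most abundant of the 10 and Ankrd37 showed the widest gap between the hairpins. Ndrg1 (ENSMUSG00000005125.13, chromosome 15, 66929318 to 66969640, minus strand) encodes a cytoplasmic protein induced by hypoxia, metals and differentiation, described as a suppressor of metastasis in some carcinomas. Its values were 478 and 480 FPKM with shRNA1, 525 and 542 FPKM with shRNA3, and 207 and 210 FPKM in WT. The knockdown libraries were all over the WT libraries by far more than the spread in any group. Ndrg1 rose 2.30-fold in shRNA1 cells and 2.56-fold in shRNA3 cells, and over both by 1.27 ± 0.03 on the log2 scale (SE, limma adjusted p = 2.82e-07). Its difference of 0.15 ± 0.04 between shRNA3 and shRNA1 (limma adjusted p = 0.0124) ended when shRNA1 replicate 1 (adjusted p = 0.0623), shRNA1 replicate 2 (0.0566) or shRNA3 replicate 2 (0.0640) was left out, with a range over all settings of 0.0119 to 0.0640. Ankrd37 (ENSMUSG00000050914.16, chromosome 8, 45996902 to 46005707, minus strand) encodes a small ankyrin repeat protein. Its level was 21.8 and 22.7 FPKM with shRNA1, 11.9 and 13.7 FPKM with shRNA3, and 6.63 and 7.25 FPKM in WT. The 3 groups were apart, with shRNA3 between shRNA1 and WT. Ankrd37 rose 3.21-fold with shRNA1 and 1.85-fold with shRNA3, a log2 difference of -0.75 ± 0.08 for shRNA3 minus shRNA1 (SE, limma adjusted p = 2.91e-04). Exons of Lrp2bp, on the other strand and at a mean of 0.0135 FPKM, cover 22.7% of the exon bases of Ankrd37, and those of Ufsp2, at 33.6 FPKM, cover 3.7%.

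**Figure D3:**
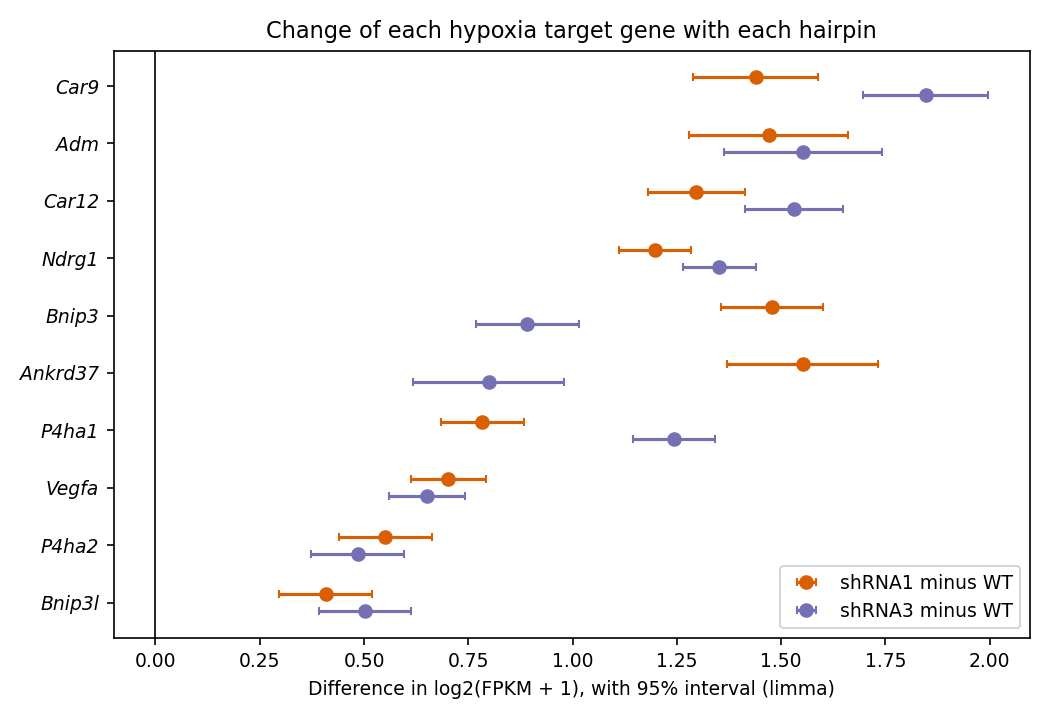
Difference in log2(FPKM + 1) between each hairpin and WT for each gene, with the 95% interval from limma, ordered by the change over both hairpins. All intervals lie above 0, and those of the hairpins are apart for Car9, Car12, P4ha1, Bnip3 and Ankrd37.

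Set against each other, the hairpins differed in some of these genes and in both directions. Of the 10 genes 4 were higher with shRNA3 than with shRNA1 (Car9, Car12, Ndrg1 and P4ha1) and 2 were lower (Bnip3 and Ankrd37), where 22.0% of all genes tested were called higher and 20.5% lower in that comparison. Adm, Vegfa, Bnip3l and P4ha2 did not pass. The median log2 difference between the hairpins was 0.09 for the 10 genes and 0.01 for all genes tested. In either direction 6 of the 10 were called, where 42.5% of all genes tested were, so the count is not a result particular to the 10. Both shRNA3 libraries lay above both shRNA1 libraries for 5 of the 10 genes and below them for 4. Of all 11079 genes tested, 4147 lay above and 3965 below, so groups that are apart are not particular to the 10 either. Fewer of the 10 were called without shRNA1 replicate 1, shRNA1 replicate 2 or shRNA3 replicate 2. In each of these settings fewer of all genes tested were called too.

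Within each of the 3 related pairs, the ratio of the first gene to the second was higher in all 4 knockdown libraries than in both WT libraries. The first gene of each pair was the one that rose more over both hairpins, so the shared direction follows from the order. How many other gene pairs are apart in this way was not tested. Of the 11079 single genes tested, 2456 were higher and 2829 lower in all 4 knockdown libraries than in both WT libraries. Bnip3 over Bnip3l was 2.01 and 1.97 with shRNA1, 1.22 and 1.26 with shRNA3, and 0.962 and 0.922 in WT. By FPKM, Bnip3 thus exceeded Bnip3l only in the knockdown libraries, but the WT libraries of these genes overlapped. Reads of the Bnip3l pseudogene may also have shifted this ratio, which was not tested. P4ha1 over P4ha2 was 1.96 and 2.11 with shRNA1, 2.88 and 3.01 with shRNA3, and 1.80 and 1.68 in WT. Car9 over Car12 was 0.416 and 0.447 with shRNA1, 0.490 and 0.491 with shRNA3, and 0.393 and 0.340 in WT. For each of these ratios an exact permutation test of 4 against 2 libraries gave p = 0.133 (two-sided; 0.133 after Benjamini-Hochberg adjustment over the 3 ratios), the smallest value this number of libraries allows.

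**Figure D4:**
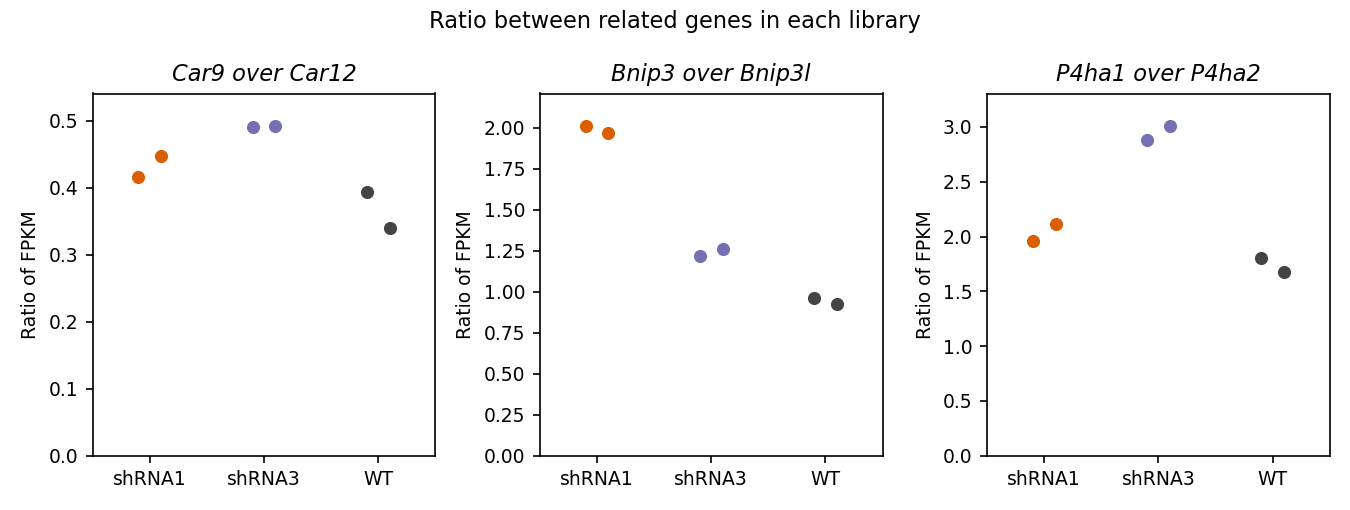
Ratio of FPKM between related genes in each library (points), for shRNA1, shRNA3 and WT cells, with each axis starting at 0. The Bnip3 to Bnip3l ratio is near 2 with shRNA1, near 1.2 with shRNA3 and under 1 in WT.

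A list of 41 other genes known to be induced by hypoxia and not part of glycolysis was followed beside the 10. Of these 32 passed the filter, and over both hairpins 29 were called higher and 0 lower, with a median log2 change of 0.77, beside 24.1% higher, 25.9% lower and a median of -0.01 over all genes tested. The list was written with earlier results of these data known. With the 4 knockdown libraries fitted as 1 group against WT, 20 of the 32 were called higher. In that fit 798 of all 11079 genes tested were called higher and 715 lower. Nos2, the inducible nitric oxide synthase, had the largest change, at 25.6 ± 0.887 FPKM with shRNA1, 30.4 ± 0.634 with shRNA3 and 4.29 ± 0.148 in WT (mean ± SD, n = 2 each). Ero1l, the oxidase that makes disulfide bonds in the endoplasmic reticulum, rose 3.21-fold and 3.30-fold with shRNA1 and shRNA3, and Cav1, the scaffold protein of caveolae, 2.61-fold and 3.47-fold. Fam162a, which encodes a mitochondrial protein, rose 2.61-fold with shRNA1 and 2.24-fold with shRNA3. Their log2 changes over both hairpins were 2.45 for Nos2 (limma adjusted p = 1.16e-07), 1.69 for Ero1l (2.75e-07), 1.46 for Cav1 (6.95e-07) and 1.27 for Fam162a (6.95e-07). The 3 genes that did not pass were Tfrc, the transferrin receptor (log2 change 0.10, limma adjusted p = 0.142), Hmox1, heme oxygenase 1 (0.02, 0.813), and Cxcr4, a chemokine receptor (-0.02, 0.915).

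By hairpin, 28 of the 32 were called higher and 0 lower with shRNA1, and 26 higher and 1 lower with shRNA3. Over all genes tested the shares were 17.6% higher and 18.4% lower with shRNA1, and 27.4% higher and 27.8% lower with shRNA3. The 1 lower gene was Tfrc, at 38.1 and 39.7 FPKM in the shRNA3 libraries against 44.3 and 43.4 FPKM in the WT libraries (log2 change -0.17, limma adjusted p = 0.0434), while with shRNA1 it was higher, at 53.8 and 60.2 FPKM (0.37, limma adjusted p = 0.00258). The call with shRNA3 is not made without WT replicate 1, WT replicate 2, shRNA3 replicate 1 or shRNA3 replicate 2, nor with median-of-ratios scaling. In the direct comparison of the hairpins, 7 of the 32 were higher and 16 lower with shRNA3 than with shRNA1, where 22.0% of all genes tested were higher and 20.5% lower. Without shRNA3 replicate 1, which leaves 1 library with that hairpin, fewer of the 32 were called in either direction. Fewer of all genes tested were called there too. The 7 higher genes were Pdgfb (log2 difference 0.51), Cav1 (0.39), Kdm4c (0.35), Plod1 (0.29), Nos2 (0.24), Plod2 (0.22) and Insig2 (0.18). Of the 16 lower genes, the pair with the largest differences was picked after the values were seen. Higd1a, a mitochondrial inner membrane protein induced by hypoxia, was at 29.0 and 27.7 FPKM with shRNA3, against 56.5 and 56.4 FPKM with shRNA1 (log2 difference -0.97, limma adjusted p = 1.13e-05), with 18.8 and 18.4 FPKM in WT. Hilpda, a lipid droplet protein, was at 13.4 and 12.2 FPKM with shRNA3, against 29.4 and 27.1 FPKM with shRNA1 (-1.08, limma adjusted p = 7.62e-05), and did not pass with shRNA3 against WT, where it read 12.5 and 14.6 FPKM (-0.07, limma adjusted p = 0.496). The remaining 9 genes of the list were below the filter, 4 of them listed at 0 in every library.

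**Figure D5:**
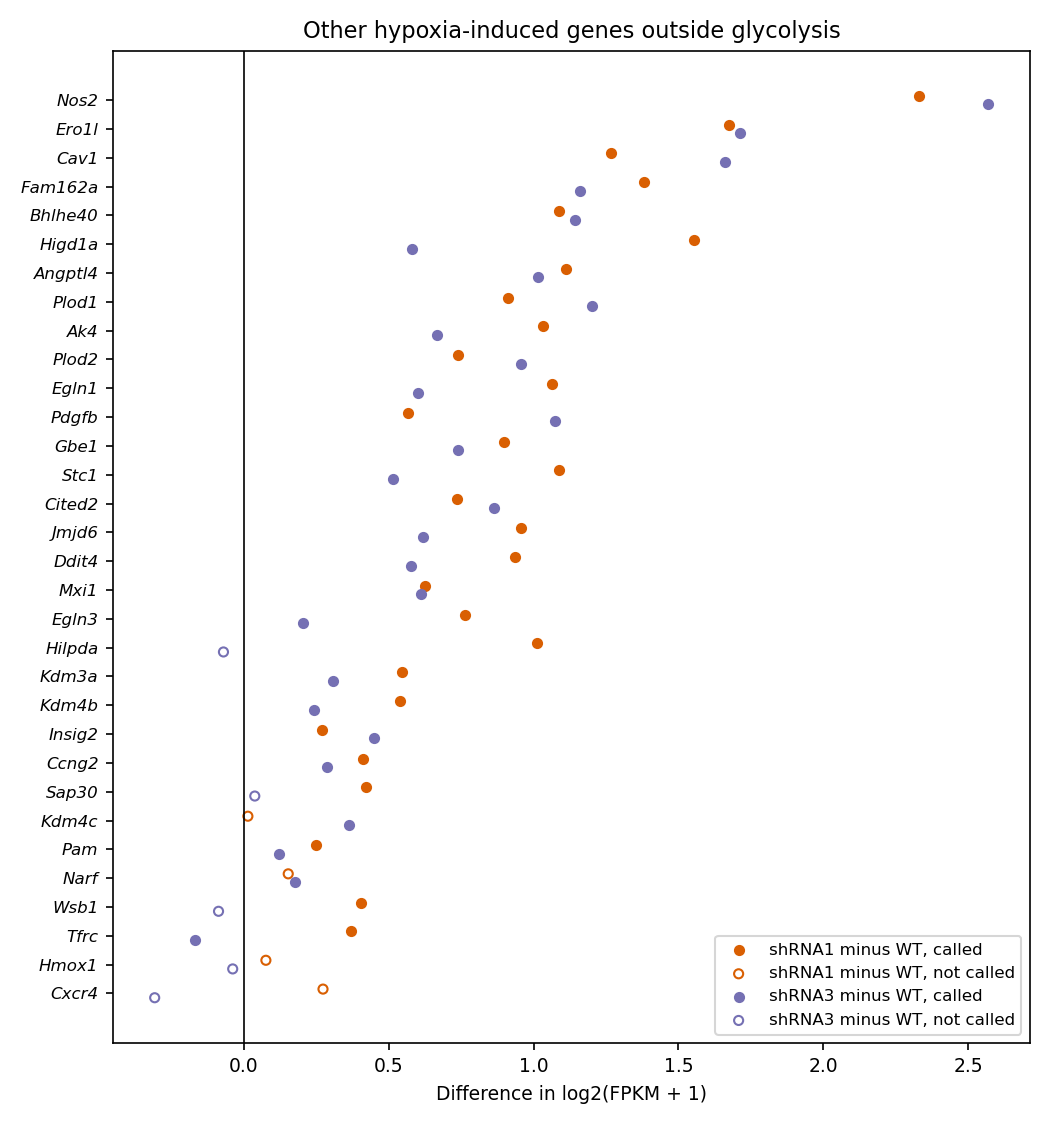
Difference in log2(FPKM + 1) between each hairpin and WT for the 32 tested genes of the list of other hypoxia-induced genes, with filled points for called and open points for not called values. Of the shRNA1 points 28 are called, all above 0, and of the shRNA3 points 27 are called, all above 0 except Tfrc.

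The genes whose pattern over the 6 libraries was most like that of the 10 were found from the root-mean-square difference, on the log2(FPKM + 1) scale and relative to each gene's WT mean, to the median of the 10. The nearest named genes outside the 10 were Hspb1, a small heat shock protein (0.08), Angptl4, an inhibitor of lipoprotein lipase (0.09), Sod3, the extracellular superoxide dismutase (0.09), the circadian repressor Bhlhe40 (0.10) and Fam162a (0.10). Angptl4, Bhlhe40 and Fam162a were already on the list of other hypoxia-induced genes, which holds 32 of the 11079 genes tested. That list was written with earlier results of these data known, so the overlap is not independent evidence. Hspb1 was at 22.0 and 19.8 FPKM with shRNA1, 18.9 and 20.0 FPKM with shRNA3, and 7.79 and 9.14 FPKM in WT. Sod3 was at 6.84 and 5.76 FPKM with shRNA1, 5.94 and 5.47 FPKM with shRNA3, and 1.87 and 2.16 FPKM in WT. Among the 10 genes themselves the difference from their median ran from 0.17 for Ndrg1 to 0.59 for Bnip3l.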

How the data were processed

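Total RNA was isolated with a column kit and made into stranded mRNA libraries, per the labels' protocols. The authors deposited 1 value per gene symbol and library. The tables name no unit; FPKM was inferred because the submitters' processing notes name Cufflinks 2.2.1 (with TopHat2 2.0.13, Bowtie2 2.2.3, SAMtools 0.1.19 and build mm10, without roles or options), and the deposited values are not whole and share no common sum. FPKM is relative to the mapped total, so abundant genes that rise lower all others. The files hold no counts, so no count test was run.

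Groups came from the sample titles. A model with 3 group means was fitted to log2(FPKM + 1) of all 6 libraries with limma 3.58.1 (R 4.3.3; trend in the prior variance; 3 residual and 4.96 prior degrees of freedom), two-sided, for genes averaging 1 FPKM or more. The fit was tested on simulated data. log2 changes on this scale understate those of low genes, and folds are ratios of group means. The 10 genes, the lists, the rule for named genes (all 10 genes; of the other list the 4 largest called rises and 2 largest called falls over both hairpins, of which there were 0; the 5 genes nearest in pattern) and the tests were chosen with earlier results of these data known. A gene of the other list is not reported here and was left out of its counts. The other genes named from that list were chosen after their values were seen. Coordinates are from GENCODE mouse release 21 on GRCm38, the assembly of mm10, and upstream sequences from RefSeq. As alternatives, the pseudocount was set to 0.1 or 0.5, the filter was dropped or raised to 5 FPKM, and 3 scalings, only the groups compared, a replicate block, no variance trend and leaving out each library were tried. SciPy 1.17.1, pandas 2.3.3 and matplotlib 3.10.9 were used for exact tests, tables and figures.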

Additional observations from a re-analysis of the deposited data

Results flagged for a closer look

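The effects of the hairpins, each measured against the same WT libraries, differed from each other for 6 of the 10 hypoxia genes by the limma contrast of shRNA3 minus shRNA1 on the log2(FPKM + 1) scale. The differences were -0.75 for Ankrd37, -0.59 for Bnip3, 0.46 for P4ha1, 0.41 for Car9, 0.23 for Car12 and 0.15 for Ndrg1. In the same contrast 42.5% of all genes tested were called. Groups of 2 libraries are too small for a search for outlying libraries.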

How the results depend on the processing

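For both hairpins, shRNA1 and shRNA3 against WT, all 10 genes kept their direction and stayed called under all 16 alternatives, with adjusted p of at most 0.0334 (Ankrd37 over both hairpins, with the knockdown libraries fitted as 1 group). Rescaling to the same total gave the lowest change for many of them, such as 0.39 for Bnip3l over both hairpins. In that setting 34.3% of the genes called over both hairpins were higher, against 48.2% without rescaling (34.9% against 49.0% with shRNA1, 37.6% against 49.7% with shRNA3). With the knockdown libraries as 1 group, 1513 of all genes were called, against 5538. Leaving out 1 library gave 2604 to 3682 calls over all genes for shRNA1 against WT, against 3989, the lowest without shRNA1 replicate 2. For shRNA3 against shRNA1, calls lost without 1 library are given with Car12 and Ndrg1, and Adm, not called, ranged from -0.03 (without shRNA1 replicate 2) to 0.19 (without shRNA1 replicate 1). With a replicate block 10 of 10 genes were still called over both hairpins, 5205 of all genes in place of 5538. The block changed no call of the 10 in any comparison. Deviations of same-numbered libraries from their group means had correlations of 0.20 for shRNA1 and shRNA3, 0.01 for shRNA1 and WT, and -0.07 for shRNA3 and WT. These correlations alone do not show whether the numbers pair the samples. Low fragment numbers limit the test of AU021063, which at a mean of 0.983 FPKM did not pass the filter.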
